A study of Sus scrofa with 48 samples.

Results

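Gene expression was compared between growing pigs of the high and low residual feed intake (RFI) lines that received the HF diet, which is high in fat and in fiber. RFI is the difference between the feed a pig eats and the amount predicted from its growth and maintenance needs, so a pig of the high RFI line eats more than predicted and a pig of the low RFI line less. Both lines came from 1 Large White population selected in opposite directions for this trait. The samples were chosen by their labels alone, as the arrays with the HF diet, and numbered 24 of the 48 in the series, with 12 pigs in the high RFI line and 12 in the low RFI line. Each array carried total RNA of the longissimus muscle of 1 pig, and the other 24 arrays came from pigs of the same lines on the LF diet, low in fat and in fiber. Since the lines diverged by selection, the comparison covers every allele that differs between them and not that of 1 gene. The arrays gave bulk measurements of a whole tissue, in which fewer cells of a type and less RNA per cell cannot be told apart.

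The longissimus is a back muscle made mostly of fast, glycolytic fibres, with blood vessels, connective tissue, resident immune cells and fat cells lying between the fibres. Fibre mass depends on the balance between protein synthesis, carried out by ribosomes, and protein breakdown by the proteasome, lysosomal cathepsins and calpains. These processes, with mitochondrial respiration and the storage and oxidation of fat, make up a large share of the energy a growing pig spends, which is why muscle is studied in lines that differ in feed efficiency.

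The levels below are log2 of the background-subtracted signal of a probe minus the mean over all tested probes of the same array, so a level of 0 is the array average and a difference of 1 is a doubling. They compare pigs at 1 probe and do not rank different probes. A difference is the mean of the high RFI line minus the mean of the low RFI line, and a probe was called when its limma p-value, adjusted over the 42125 tested probes by the Benjamini-Hochberg method, was below 0.05. Of the 42125 probes, 22172 had a gene symbol, standing for 10720 genes. All 12 genes of a list of skeletal muscle fibre markers were measured, and their 62 probes were well above background on all 24 arrays. On the 24 arrays the median processed signal ranged from 52.8 to 79.3 in the low RFI line and from 55.6 to 107.9 in the high RFI line, and no spot was saturated. Any 2 of these arrays correlated at between 0.966 and 0.990 over probes. A pair of arrays of the high RFI line stood apart from the rest in a principal component analysis of the 48 arrays: that of pig 6 on the first component, and that of pig 10, which also had the highest median signal, on the second. Pigs are numbered within their group in the order of deposit. Results that rest on either pig are given with and without it. Exceptions are the counts of immediate early genes and the genes named after their values were seen.

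The sequences of the probes at which the 2 lines did not overlap at all, and those of probes for the same gene that gave other answers, show what was measured and how far one oligonucleotide speaks for a gene. Each probe is 60 bases long and is given in part, 5′ to 3′, as read from the array files. The first 30 bases are printed except for PIGL. No genome position is given for any of them because the array files do not hold one. The CA4 sequence occurs under 2 probe names that share all 60 bases. For OAZ3, LZTFL1, GCM1, RPS13 and RPL38 a pair of probes is shown, first the one with the larger difference. For PIGL the capitals mark the 26 bases that its 2 probes have in common, which lie in different places of the 2 oligonucleotides.
CA4: cctcaggcttcccaggttgcactttgatga
OAZ3, first probe: atgtggactccgtgtttgtgaatttccaaa
OAZ3, second probe: ttgttataaaagcatcacttataaagaaca
LZTFL1, first probe: cttttagagtgggaagaagagacttactct
LZTFL1, second probe: tctcaaactcctctctgcctagtgctccaa
GCM1, first probe: ttctgtttggaaggagtcacagcatctgtt
GCM1, second probe: tacctgggcttggatcactgcaacaatgaa
CCDC69: actttgtcatcgaaatgaagaatgagcgga
RPS13, first probe: tattcaccggttggctcgatattacaagac
RPS13, second probe: cagcctctgccctggttgcataaacttgtt
RPL38, first probe: tggttgcctcaaaatcctgggctgtgatcc
RPL38, second probe: ttcaaagttcgatgcagcagatacctgtac
PIGL, first probe: tTCTCTCTGCAGCCAAGAATTATGTCTtaa
PIGL, second probe: gcTCTCTCTGCAGCCAAGAATTATGTCTaa

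The lines differed at 2692 of the 42125 probes on the HF diet. In the high RFI line 994 probes were higher, which is 2.36% of those tested, and 1698 were lower, which is 4.03%. At 10193 probes the unadjusted p was below 0.05. Among the probes with a gene symbol 609 were higher (2.75%) and 910 lower (4.1%), standing for 381 genes with a higher probe and 705 with a lower one, of which 8 had both. The differences were mostly small, with a median size of 0.34 on the log2 scale, and 187 called probes differed by at least 1, 137 of them higher and 50 lower. Without pig 6 there were 1694 called probes, of which 578 were higher and 1116 lower. When only the 24 HF arrays were fitted, so that the spread came from these pigs alone, 1267 probes were called.

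At 10 probes every pig of one line lay above every pig of the other, 4 of them higher in the high RFI line (0.0095% of those tested) and 6 lower (0.0142%). Of these probes 6 had a gene symbol, those for CA4, LZTFL1, GCM1, CCDC69, PIGL and RPS13, and the other 4 had none.

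CA4, a carbonic anhydrase held on the surface of capillary cells and muscle fibres, had its level between 0.36 and 2.53 in the low RFI line, with a median of 1.91, and between 2.63 and 3.48 in the high RFI line, with a median of 3.11. At this probe no pig of the high line reached down to the low line, but the highest low level, 2.53, lay close to the lowest high level, 2.63. The spread was wider in the low line. The difference was 1.40 (limma adjusted p = 0.000188), and the second CA4 probe, which has the same 60 bases and is no independent measurement, gave 1.41 ± 0.23 (SE, n = 12 per line). CA4 was also 0.51 higher in the high RFI line on the LF diet, where it was not called (adjusted p = 0.228).

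LZTFL1 regulates the traffic of proteins to the cilium. Its level spanned -1.81 to -1.18 in the low RFI line, with a median of -1.46, against -1.10 to 0.60 in the high RFI line, with a median of -0.29. The lines were separate at this probe, with a difference of 1.19 ± 0.16 (limma adjusted p = 1.24e-05). The second LZTFL1 probe did not show it, with a difference of -0.23 (adjusted p = 0.139). GCM1, a transcription factor known from the placenta, had levels of 0.29 to 0.58 in the low line, with a median of 0.48, and of 0.65 to 1.73 in the high line, with a median of 0.97. Here too the lines were separate at 1 probe, with a difference of 0.60 ± 0.14 (adjusted p = 0.00694), and not at the other, where it was -0.07 (adjusted p = 0.674). What the paired sequences have in common is only the gene name, so each of these results stands for 1 oligonucleotide.

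In the other direction, CCDC69, a coiled-coil protein that binds the central spindle, had the levels 2.84, 3.22 and 3.63 as lowest, median and highest of the low RFI line and 1.75, 2.25 and 2.83 in the high RFI line. It was 1.93-fold lower in the high RFI line, a difference of -0.95 ± 0.12 (limma adjusted p = 7.82e-06), and the difference on the LF diet was -0.87 (adjusted p = 2.67e-05). PIGL, an enzyme of the synthesis of the glycosylphosphatidylinositol anchor that fixes proteins to the cell surface, had levels of -1.38 to -0.33 in the low line, with a median of -1.01, and of -2.23 to -1.58 in the high line, with a median of -2.00. The difference was -1.04 ± 0.15 (adjusted p = 3.42e-05), and the probe that shares 26 bases with it gave -0.79 (adjusted p = 0.00625). RPS13, a protein of the small ribosomal subunit, spanned 7.75 to 8.34 in the low line, with a median of 7.93, and 7.34 to 7.72 in the high line, with a median of 7.63. Although the lines did not overlap, the difference of -0.36 ± 0.06 was small (adjusted p = 0.000172), and its second probe gave -0.20 (adjusted p = 0.0291). Both RPS13 probes were therefore called in the same direction.

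**Figure D1:**
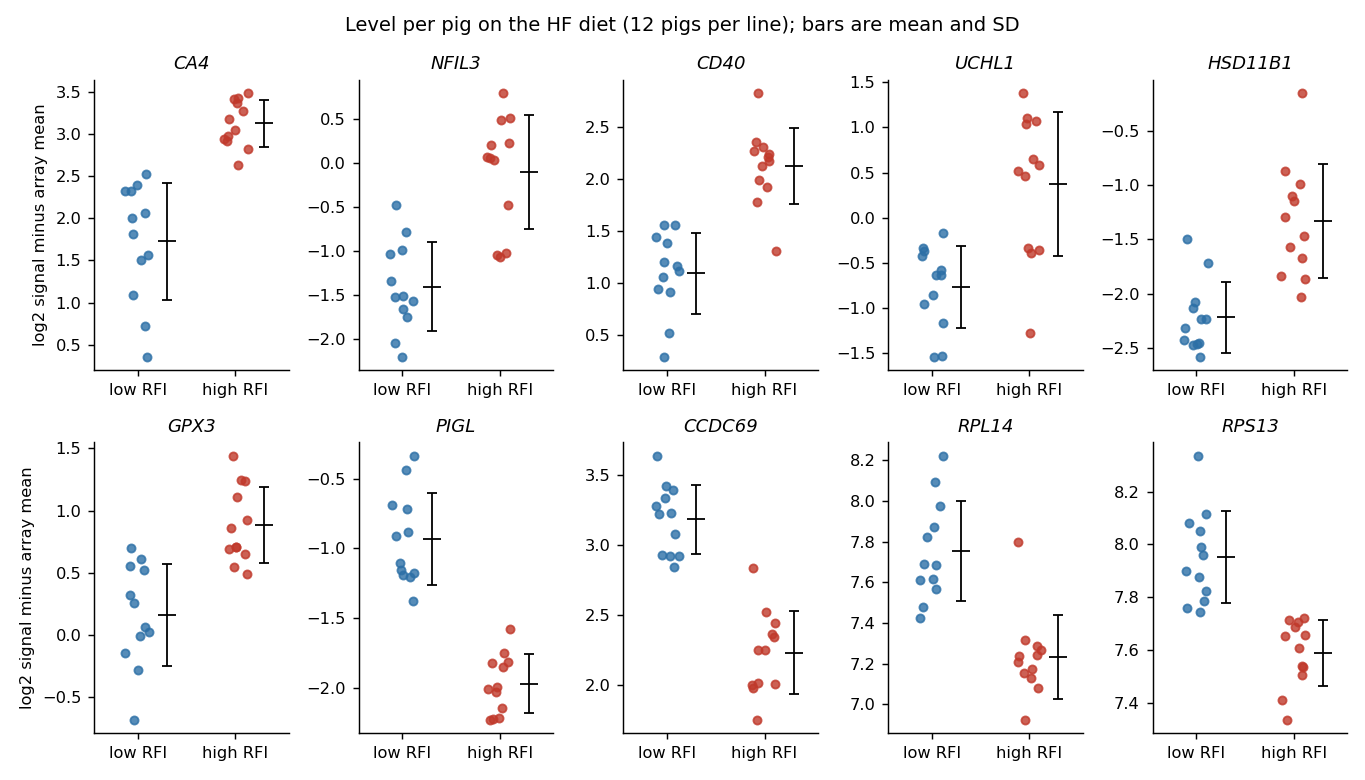
Level of 10 genes in each of the 12 low and 12 high RFI pigs on the HF diet, with the mean and SD of each line; the vertical axis is log2 signal minus the array mean. The lines do not overlap at CA4, PIGL, CCDC69 and RPS13, and overlap in part at the other genes.

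Many genes were represented by several probes. There were 168 genes with at least 2 tested probes, of which 50% or more were called higher and none lower, and 243 genes for which the reverse held. The largest median differences among them came from genes of varied function. The plot of differences on both diets and the plot of levels by pig show that the lines overlapped at most of these genes.

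Higher in the high RFI line was NFIL3, a leucine zipper repressor that takes part in the circadian clock and in the development of immune cells. Its level ranged from -2.21 to -0.49 in the low RFI line, with a median of -1.52, and from -1.07 to 0.79 in the high RFI line, with a median of 0.05. The ranges overlapped, but all 12 pigs of the high line lay above the median of the low line. The difference was 1.30 ± 0.30 (limma adjusted p = 0.00753), both of its probes were called, and on the LF diet it was 0.30. UCHL1, a ubiquitin hydrolase of neurons, had levels of -1.55 to -0.17 in the low line, with a median of -0.64, and of -1.28 to 1.38 in the high line, with a median of 0.55. Its difference of 1.14 ± 0.23 (adjusted p = 0.00243) was near the 1.21 measured on the LF diet. DCLK1, a kinase that binds microtubules, spanned -0.96 to 1.22 in the low line and 0.38 to 3.29 in the high line, with medians of 0.26 and 1.54 and a difference of 1.31 ± 0.33 (adjusted p = 0.0156). For UCHL1 and DCLK1 too, both probes were called.

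OAZ3 belongs to the antizyme family, which restrains ornithine decarboxylase in polyamine synthesis, and is known from the testis. The ranges of the lines overlapped at OAZ3, but it had the largest difference among these genes. Its level ran from -6.77 to -1.85 in the low RFI line, median -5.88, and from -6.79 to -0.55 in the high RFI line, median -1.31. It was well above background in 4 pigs of the low line and 11 of the high line, so its difference of 2.95 ± 0.70 (limma adjusted p = 0.00972) rests largely on pigs with a signal set against pigs near background. All 3 of its probes were called, but 2 of them have the same sequence and the third gave 0.58. KCNIP2, a subunit of potassium channels of the Kv4 type, differed by 1.33 ± 0.37 (adjusted p = 0.0244) and by 1.37 on the LF diet. SOX9, the transcription factor of cartilage, differed by 1.38 (adjusted p = 0.0155), with 8 pigs of the high line and 2 of the low line well above background.

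Lower in the high RFI line was SERPINA1, the inhibitor of neutrophil elastase. Its level ranged from -0.70 to 2.05 in the low line, with a median of 0.72, and from -5.15 to 0.66 in the high line, with a median of -1.16. No pig of the high line lay above the median of the low line. The difference was -1.74 ± 0.45 (limma adjusted p = 0.0171), but it was not called when only the 24 HF arrays were fitted. SRPK3, a muscle kinase that phosphorylates splicing factors, fell by 0.76 ± 0.22 (adjusted p = 0.0292), with 5 of its 6 probes called and ranges of 6.54 to 7.16 in the low line and 5.01 to 6.97 in the high line. CPSF3, the endonuclease that cleaves pre-mRNA ahead of polyadenylation, fell by 0.96 ± 0.23 (adjusted p = 0.00985) at 1 of 2 probes, and the other gave -0.39. MEIG1, known from sperm formation, had a difference of -1.07 at a dim probe (adjusted p = 0.0334), and of -1.04 without pig 6 (adjusted p = 0.0542). BTBD3, known from the shaping of dendrites, had -1.43 at a dim probe, while its second probe, well above background in all 24 pigs, gave -0.10 (adjusted p = 0.319). C4H8orf37 fell by 0.80 (adjusted p = 0.00161), and LGI3, a secreted leucine-rich repeat protein, fell by 0.34 (adjusted p = 0.0041).

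In several cases a large difference came from 1 of a pair of probes. RPL38, a protein of the large ribosomal subunit, had levels of 3.49 to 6.95 in the low RFI line and 3.45 to 5.51 in the high RFI line, a difference of -2.13 ± 0.30 (limma adjusted p = 2.47e-05), while its second probe, whose sequence is printed above, gave -0.14 (adjusted p = 0.199). PDGFRB, a receptor of pericytes and fibroblasts, gave -1.81 at one probe and 0.22 at the other. NUF2, a kinetochore protein, gave 1.68 and -0.21. Such values describe a probe, and a base change or a splice form under the probe cannot be told apart from a difference in abundance with these data. Over the array 1509 sequences were present under more than 1 probe name, and the median difference between probes of the same sequence was 0.028, with a 90th percentile of 0.165. That value covers the error between spots of 1 array and not that of extraction, labelling or hybridisation.

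**Figure D2:**
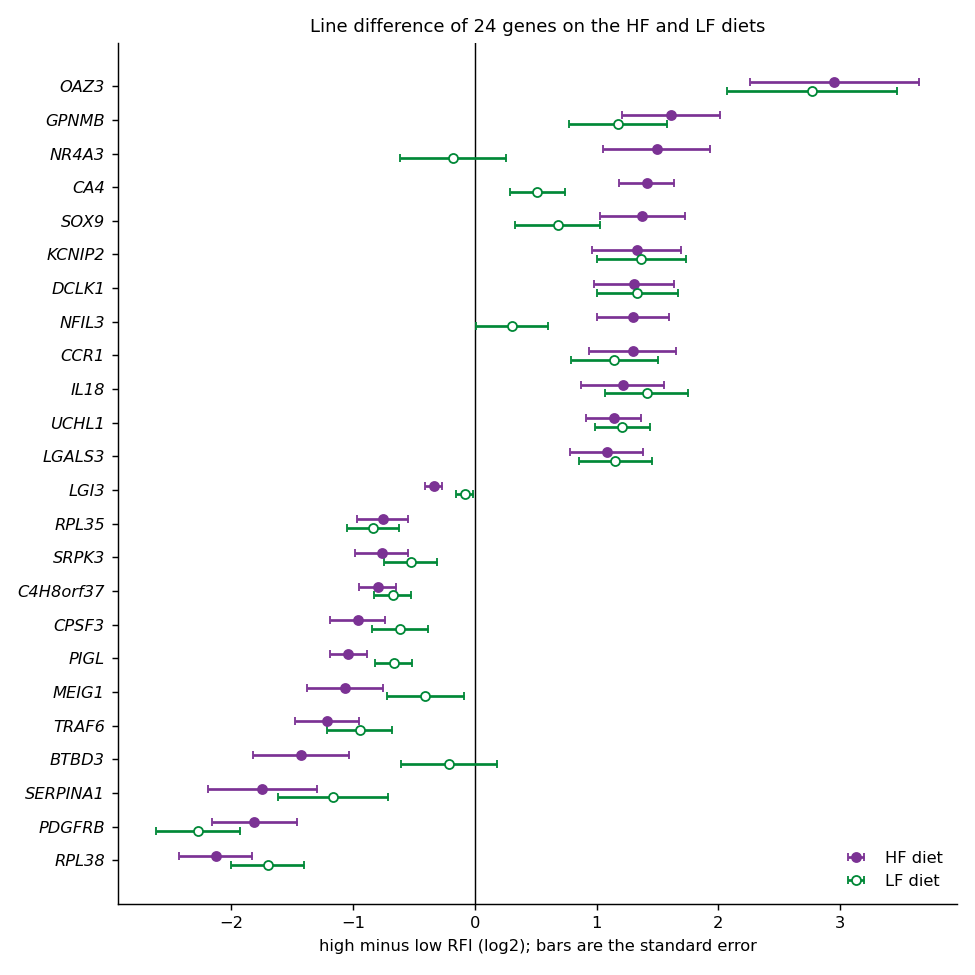
Difference between the lines, with its standard error, on the HF and LF diets for 24 genes. The axis is log2, high minus low RFI. They were chosen for the largest median differences over probes among the 168 higher and 243 lower genes with several probes counted in the text. Each point is 1 probe of the gene, the one with the largest moderated t in size on the HF diet, and not the median. The HF value is thus that of a probe picked on that diet. For RPL38 the point is at -2.13 and the median is -1.13. None of the probes of these genes was called in the other direction. Probes of a gene could still disagree, as for RPL38, with -2.13 and -0.14 on the HF diet. CA4, NFIL3 and NR4A3 have larger differences on the HF diet, while UCHL1 and KCNIP2 have about the same on both.

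Ribosomal protein genes were lower in the high RFI line. Of 298 probes for 72 proteins of the cytosolic ribosome, 126 were called lower and none higher, a share of 42.3% against 4.1% of all probes with a symbol. These 126 probes stood for 47 genes, and 289 of the 298 probes had a difference below 0. The median difference of the list was -0.17, beside -0.02 over all probes with a symbol. Probes of 1 gene, and genes regulated together, are not independent of each other, so these counts describe the list.

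In single pigs the lines differed less clearly. The mean level of the list lay between 6.55 and 7.01 in the low RFI line, with a median of 6.78, and between 6.34 and 6.74 in the high RFI line, with a median of 6.59. The lines overlapped from 6.55 to 6.74, and the high line was the lower one on 6 of 6 slides. For RPL14, of the large subunit, the levels were 7.42 to 8.22 in the low line, with a median of 7.69, and 6.92 to 7.80 in the high line, with a median of 7.22. All 7 of its probes were called, with differences of -0.61 to -0.46 (limma adjusted p = 9.3e-05 at the leading probe), and on the LF diet the leading probe gave -0.54. RPL6, also of the large subunit, had levels of 6.80 to 7.28 in the low line and 6.32 to 7.05 in the high line. No pig of the high line lay above the RPL6 median of the low line, and the difference was -0.41 ± 0.08 (adjusted p = 0.00185), with 11 of 15 probes called. RPL35 fell by 0.76 (adjusted p = 0.0268) at its leading probe, with all 3 probes called.

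The number of called ribosomal probes depended on how the arrays were scaled. Quantile normalization left 28 lower and 1 higher, with a median difference of -0.07, and the normexp background correction left 54 lower. Without pig 10 there were 78, without pig 6 there were 121, and fitting the 24 HF arrays alone gave 37. On the LF diet 39 probes of the list were called lower and none higher, with a median of -0.14.

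The mitochondrial ribosome and the translation factors moved less. Of 103 probes for 63 mitochondrial ribosomal proteins, 12 were lower (11.7%, beside 4.1% of all probes with a symbol), from 9 genes. MRPL9, of the large mitochondrial subunit, had levels of 4.56 to 5.05 in the low RFI line, with a median of 4.91, and 4.22 to 4.95 in the high RFI line, with a median of 4.35. It fell by 0.44 ± 0.08 (limma adjusted p = 0.000834), and both of its probes were called. MRPS16, of the small mitochondrial subunit, fell by 0.47 (adjusted p = 0.00219) at 1 of 2 probes. Of 132 probes for 42 translation factors 6 were lower (4.55%), a share near that of all probes with a symbol. They included EIF3F, a subunit of the initiation factor that keeps the ribosomal subunits apart, with levels of 5.89 to 6.65 in the low line and 5.62 to 6.04 in the high line and a difference of -0.32 ± 0.07 (adjusted p = 0.00615). EIF3H, of the same complex, fell by 0.45 at 1 of 2 probes, and the elongation factor EEF1D fell by 0.30 (adjusted p = 0.00713), the latter no longer called after quantile normalization.

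**Figure D3:**
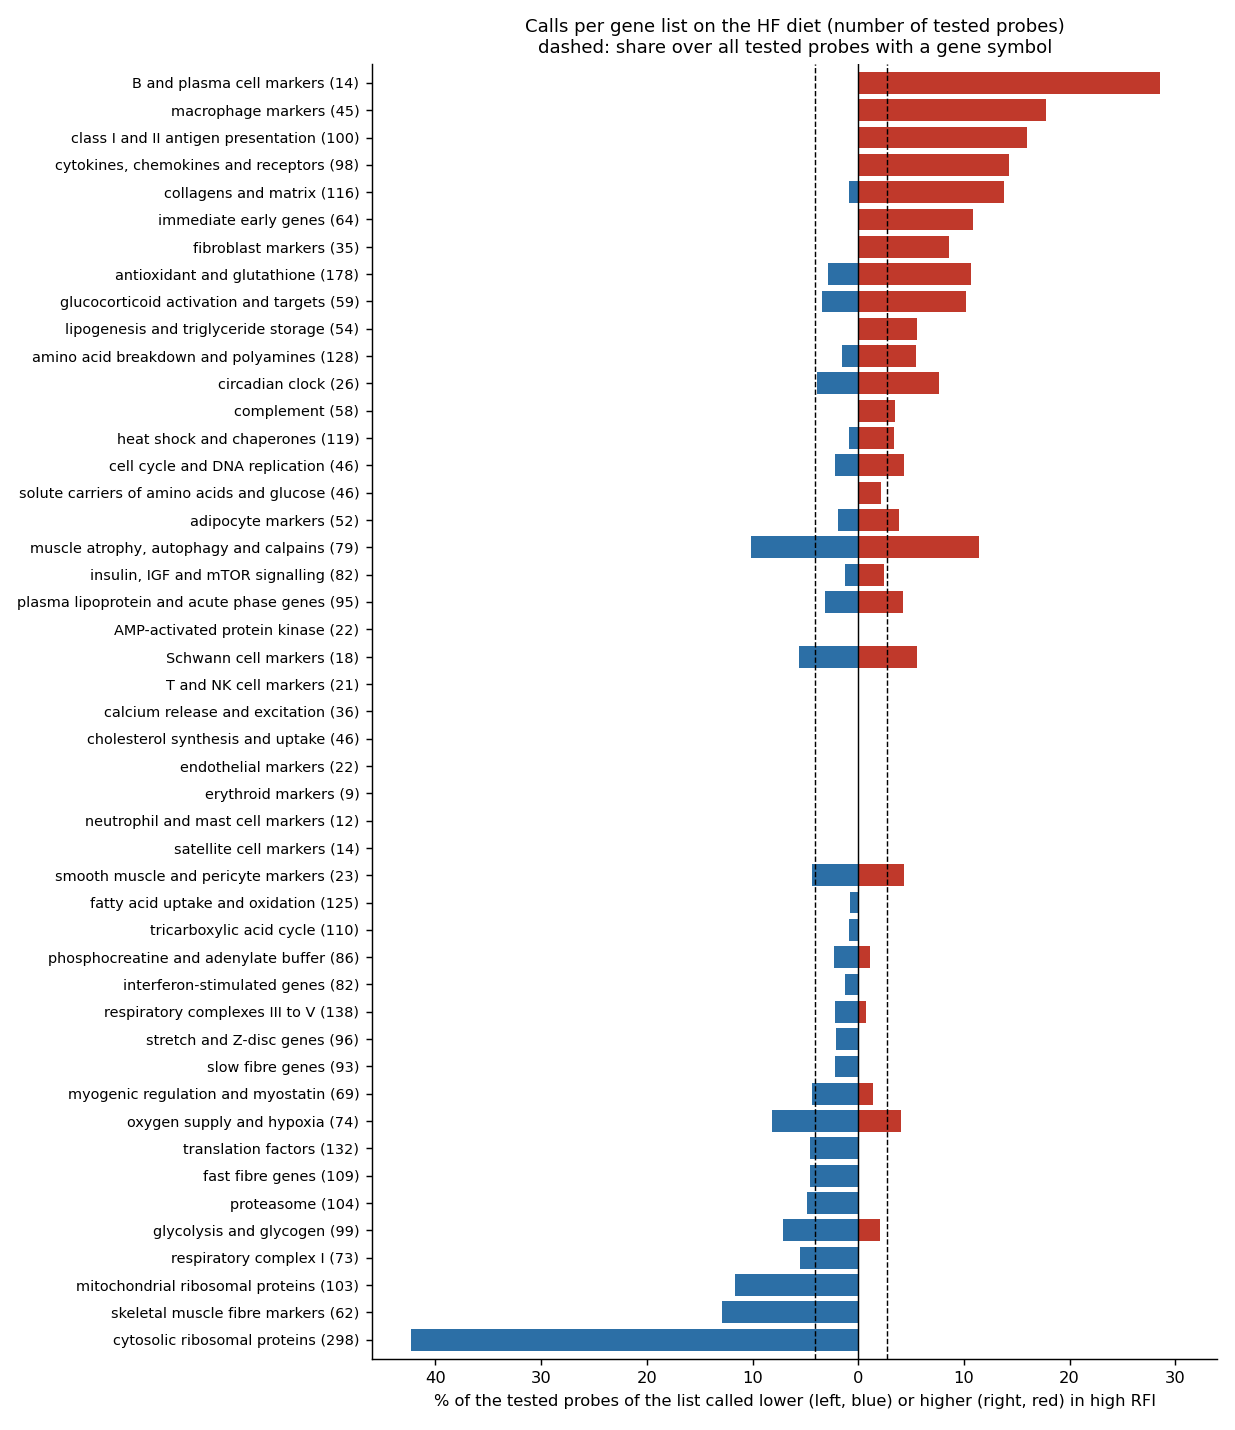
Share of the tested probes of each gene list called higher or lower in the high RFI line on the HF diet, in percent, with dashed lines at the shares of all probes with a symbol, 2.75% higher and 4.1% lower. Cytosolic ribosomal proteins had the largest share called lower, and B and plasma cell markers (4 of 14 probes, 1 of them the CD79B probe with no measured fold), macrophage markers, antigen presentation and cytokines the largest shares called higher.

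Genes of antigen presentation and of cytokine signalling were called higher in the high RFI line and not lower. Of 100 probes for 29 genes of antigen presentation, 16 were called higher and none lower (16%), and of 98 probes for 46 cytokines, chemokines and their receptors 14 were higher and none lower (14.3%). Both shares stand beside 2.75% of all probes with a symbol. The median differences were 0.32 and 0.16. Without pig 6, whose array stood apart, 6 probes of antigen presentation were called higher and 1 lower, with a median of 0.24, and 6 of the cytokine list were called higher.

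CD40, the receptor of B cells and macrophages through which T cells give help, was the clearest of them. Its level ran from 0.29 to 1.56 in the low RFI line, with a median of 1.14, and from 1.31 to 2.83 in the high RFI line, with a median of 2.20. Of the 12 pigs of the high line 11 lay above every pig of the low line. The difference was 1.04 ± 0.18 (limma adjusted p = 0.00043), all 4 probes were called, and the call held in each alternative run. On the LF diet the difference was 0.92. CXCL16, a chemokine and scavenger receptor of macrophages, had levels of -1.93 to 0.19 in the low line and -0.58 to 1.93 in the high line, a difference of 0.95 ± 0.25 (adjusted p = 0.0195). IL18, a cytokine released by the inflammasome, had levels of -1.53 to 0.81 and -1.43 to 1.93 in the low and high lines, a difference of 1.21 ± 0.34 (adjusted p = 0.027). CCR1, a chemokine receptor of monocytes, differed by 1.30 ± 0.36 (adjusted p = 0.025), at a probe well above background in 10 pigs of the high line and 5 of the low line, and by 1.17 (adjusted p = 0.0309) at a probe well above background in 12 and 9. Without pig 6 neither IL18, at 1.08 (adjusted p = 0.0563), nor CCR1, at 1.13 at its leading probe (adjusted p = 0.053), was called. IL10, the anti-inflammatory cytokine, and CXCL2, which attracts neutrophils, each had 1 called probe, with differences of 1.05 and 0.97. For IL10 and CXCL2 no values without pig 6 are given.

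Class I genes made up most of the calls in antigen presentation. SLA-3, a classical class I heavy chain of the pig, had levels of 0.15 to 2.17 in the low RFI line and 1.11 to 3.06 in the high RFI line. All 12 pigs of the high line lay above the median of the low line, the difference was 1.16 ± 0.26 (limma adjusted p = 0.00667), and 4 of 8 probes were called. NLRC5, the transactivator of class I genes, had levels of -4.14 to -3.01 in the low line and -3.45 to -1.96 in the high line, a difference of 0.91 ± 0.17 (adjusted p = 0.00106) at 1 of 2 probes. B2M, the light chain shared by all class I molecules, was higher at 4 probes, with differences of 0.43 to 0.51. SLA-2 was higher by 0.73 (adjusted p = 0.0265), which without pig 6 was 0.66 (adjusted p = 0.0525). The class I genes are highly polymorphic and close to each other in sequence, so a probe can read more than 1 of them and can bind alleles unequally. Among class II genes, SLA-DMB differed by 0.62 and SLA-DQA1 by 0.71. Of 82 probes for interferon-stimulated genes none was called higher and 1 lower, with a median of 0.02. That 1 probe was for IRF9, a subunit of the interferon-activated factor, with a difference of -0.27 (adjusted p = 0.00615), and the second IRF9 probe gave 0.12. Of 58 complement probes 2 were higher (3.45%) and none lower, a share near that of all probes with a symbol.

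Macrophage markers were higher beside these genes. Of 45 probes for 15 marker genes 43 had a difference above 0, with a median of 0.51, and of 0.49 on the LF diet. Called higher were 8 (17.8%, beside 2.75% of all probes with a symbol), 7 of them for GPNMB and 1 for CSF1R. The mean level of the list was -2.31 to -0.72 in the low RFI line and -1.71 to 1.26 in the high RFI line. The highest value, 1.26, was that of pig 6, without which 2 of the 45 probes were called and the median was 0.36, and after normexp correction none of the 45 was called. No probe for markers of T and NK cells, neutrophils and mast cells, endothelial cells, satellite cells or erythroid cells was called. Schwann cell markers had 15 of 18 probes below 0, with a median of -0.30, and of -0.45 on the LF diet. Of these 18 probes 1 was called higher and 1 lower (5.56% each). Smooth muscle and pericyte markers also had 1 of 23 probes called in each direction (4.35%), with a median of -0.02. The part of macrophages in the higher immune genes was not tested.

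The leading probe of GPNMB, a glycoprotein of phagocytes, had levels of -6.52 to -4.13 in the low RFI line, with a median of -5.57, and -5.43 to -1.59 in the high RFI line, with a median of -4.04. It was well above background in only 6 pigs of the high line and 1 of the low line, and its difference was 1.61 ± 0.40 (limma adjusted p = 0.0139). Of the 10 GPNMB probes 7 were called, among them 2 that were well above background in all 24 pigs, with differences of 1.30 and 1.26. A further 2 probes as bright as these were not called, at 0.74 and -0.15. CSF1R, the receptor for the growth factor of macrophages, differed by 1.07 ± 0.30 (adjusted p = 0.0268), and by 0.91 without pig 6 (adjusted p = 0.0585). LGALS3, a galectin abundant in macrophages, had levels of -2.25 to -0.72 in the low line and -1.66 to 2.09 in the high line. All 8 of its probes were called, with a difference of 1.08 ± 0.30 at the leading probe (adjusted p = 0.025), and without pig 6 of 0.85 (adjusted p = 0.0521). Of the lysosomal proteases, CTSH had levels of -0.23 to 0.93 in the low line and 0.64 to 2.40 in the high line, a difference of 0.74 ± 0.16 (adjusted p = 0.00615) with all 3 probes called. CTSS, which trims the class II invariant chain, differed by 0.81 (adjusted p = 0.0401) at the leading of 5 called probes out of 12, and by 0.60 without pig 6 (adjusted p = 0.082). Of 14 probes for B and plasma cell markers, 9 of them for XBP1, 4 were higher (28.6%, beside 2.75% of all probes with a symbol) and none lower. XBP1, a factor of secretory cells, had 3 of these 4 calls and differed by 0.34 (adjusted p = 0.0344) at the leading probe. The other was for CD79B, of the B cell receptor, which was well above background in 5 pigs of the high line and in none of the low line. The signal of the high line did not exceed the floor of the low line at that CD79B probe, so its call gives no measured fold.

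**Figure D4:**
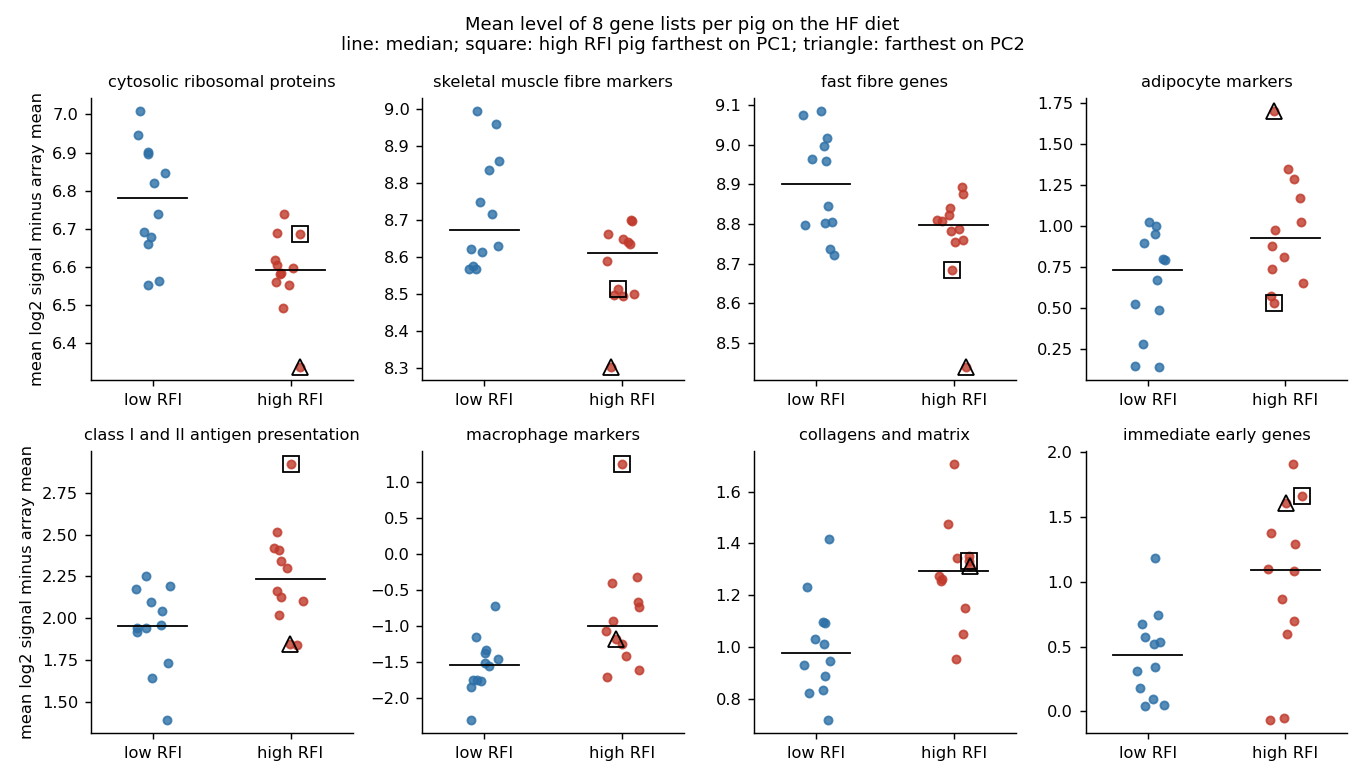
Mean level of 8 gene lists in each of the 12 low and 12 high RFI pigs on the HF diet, as log2 signal minus the array mean; the square marks pig 6 and the triangle pig 10 of the high RFI line. Pig 6 has the highest macrophage level, 1.26, and pig 10 the highest adipocyte level, 1.70.

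Collagens and other genes of the extracellular matrix were higher in the high RFI line. Of 116 probes for 36 genes, 16 were called higher (13.8%) and 1 lower (0.862%), beside 2.75% and 4.1% of all probes with a symbol. A difference above 0 was found at 103 of the 116. The median difference was 0.28, against 0.12 on the LF diet, where no probe of the list was called. Without pigs 6 and 10 there were 8 higher probes, with a median of 0.30, and with no filter on dim probes none was called. Of 35 probes for fibroblast markers, which share collagen genes with this list, 27 had a difference above 0, 3 were higher (8.57%) and none lower. The mean level of the fibroblast markers was 1.71 to 2.41 in the low RFI line and 1.92 to 2.49 in the high RFI line, and their part in the matrix genes was not tested.

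COL1A1, the main chain of fibrillar collagen of tendon and muscle sheaths, had levels of 4.39 to 5.39 in the low RFI line, with a median of 4.76, and 4.92 to 5.92 in the high RFI line, with a median of 5.39. All 12 pigs of the high line lay above the median of the low line, the difference was 0.56 ± 0.16 (limma adjusted p = 0.0263), and both probes were called. COL14A1, a collagen on the surface of fibrils, had levels of 1.14 to 2.25 in the low line and 1.62 to 2.74 in the high line, a difference of 0.59 ± 0.16 (adjusted p = 0.0226) with 6 of 12 probes called. COL4A1, of basement membranes, differed by 0.37 (adjusted p = 0.0139) at the leading of 2 called probes out of 7, and COL5A3 by 0.42 (adjusted p = 0.0156). LOX, the enzyme that crosslinks collagen, differed by 0.72, and SPARC, a matrix protein that binds collagen, by 0.30. THBS1 had 1 probe higher, at 0.82, and 1 lower, at -0.21, of 7. TGFB1, the growth factor that induces matrix genes, differed by 0.43 (adjusted p = 0.0256) at 1 of 2 probes, and by 0.31 without pig 6 (adjusted p = 0.0517).

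Genes of the fibres themselves were slightly lower in the high RFI line, which depended on the scaling. Of the 62 probes of the muscle fibre markers 60 had a difference below 0, with a median of -0.14. Called lower were 8 of them (12.9%), beside 4.1% of all probes with a symbol. After quantile normalization the median was -0.01 and 2 probes were called. Fast fibre genes had 102 of 109 probes below 0 and a median of -0.14 that became 0.00 after quantile normalization. Their 5 probes called lower (4.59%) were a share near that of all probes with a symbol. Slow fibre genes had a median of 0.13, with 2 of 93 probes called, both lower and both for LDB3.

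MYLPF, the regulatory light chain of fast myosin, had levels of 2.81 to 3.39 in the low RFI line, with a median of 3.13, and 2.65 to 2.92 in the high RFI line, with a median of 2.76. No pig of the high line lay above the median of the low line. The difference at this probe, 1 of 5, was -0.33 ± 0.06 (limma adjusted p = 0.00153) and was called in each alternative run. The fast troponins followed with smaller differences, TNNC2 at -0.28 (adjusted p = 0.0126) at 1 of 6 probes and TNNT3 at -0.21 (adjusted p = 0.0259) at the leading of 2 called probes out of 5, of which TNNT3 without pig 6 was at -0.19 (adjusted p = 0.0535). TTN, the spring of the sarcomere, fell by 0.28 at 1 probe (adjusted p = 0.00377), while another of its probes gave 0.51. CAST, the inhibitor of the calpain proteases, had levels of 2.67 to 3.41 in the low line and 2.37 to 2.94 in the high line and fell by 0.34 ± 0.09 (adjusted p = 0.0211) at the leading of 2 called probes out of 6. TRAF6, a ubiquitin ligase of muscle wasting, fell by 1.21 at 1 of 2 probes. Of 104 proteasome probes 5 were lower (4.81%) and none higher, with a median of -0.01. That share was near the 4.1% of all probes with a symbol. PSMB6, a catalytic core subunit, had 4 of these calls and fell by 0.31 (adjusted p = 0.00137).

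Genes of energy use showed few calls. Of 99 probes of glycolysis and glycogen 2 were higher (2.02%) and 7 lower (7.07%), beside 2.75% and 4.1% of all probes with a symbol. ENO3, the muscle enolase, fell by 0.23, and was not called without pig 6, at -0.22 (adjusted p = 0.0545), or without pig 10, at -0.19 (adjusted p = 0.0515). HK1, a hexokinase common outside muscle, went the other way, with levels of 2.57 to 3.22 in the low line, 2.85 to 3.93 in the high line and a difference of 0.40 ± 0.11 (adjusted p = 0.0219).

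The mitochondrial lists had few calls. Respiratory complex I had 4 of 73 probes lower (5.48%, beside 4.1% of all probes with a symbol) and none higher, and complexes III to V had 3 of 138 lower (2.17%) and 1 higher. NDUFA2, an accessory subunit of complex I, fell by 0.33 (limma adjusted p = 0.0151) at 1 of 2 probes. The higher probe was 1 of 8 for UQCRB, of complex III, with a difference of 0.44 (adjusted p = 0.0167), while the other 7 UQCRB probes lay between -0.17 and -0.12 and were not called. The tricarboxylic acid cycle had 1 of 110 probes called (0.909%) and the uptake and oxidation of fatty acids 1 of 125 (0.8%), both lower. The second was a probe for ACSL3, which activates long-chain fatty acids, with a difference of -0.43 (adjusted p = 0.00625), while the other 2 ACSL3 probes gave 0.04 and -0.02. No probe of calcium handling, cholesterol synthesis or AMPK signalling was called. For GATM, which makes the precursor of creatine, 1 of 8 probes was called. That probe was well above background in 9 pigs of the high line and none of the low line, and was at least 1.44-fold higher (adjusted p = 0.00808). The other 7 GATM probes, 1 of them well above background in all 24 pigs, had differences of 0.13 to 0.61 (adjusted p from 0.0588 to 0.793).

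The genes of fat differed little between the lines by count. Of 52 probes of 14 adipocyte markers 2 were higher (3.85%) and 1 lower (1.92%), beside 2.75% and 4.1% of all probes with a symbol. The median difference, though, was 0.38, as against -0.06 on the LF diet. The mean level of the list was 0.14 to 1.02 in the low RFI line and 0.53 to 1.70 in the high RFI line, with medians of 0.73 and 0.93. Pig 10 had the 1.70, and without it no probe was called higher and the median was 0.30. LIPE, the hormone-sensitive lipase, gave both higher calls. Its levels were 1.79 to 2.69 in the low line and 2.07 to 3.46 in the high line, and the difference was 0.46 ± 0.14 (limma adjusted p = 0.0399), which without pig 10 was 0.39 (adjusted p = 0.0694).

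Of 54 probes of lipogenesis and triglyceride storage 3 were higher (5.56%) and none lower, beside 2.75% and 4.1% of all probes with a symbol. The median was 0.20, as against -0.13 on the LF diet. ELOVL5, which lengthens polyunsaturated fatty acids, had levels of 0.24 to 0.79 in the low RFI line, with a median of 0.65, and 0.76 to 1.90 in the high RFI line, with a median of 1.14. The lines all but separated at this probe, with a difference of 0.62 ± 0.14 (limma adjusted p = 0.00822), and its other 2 probes gave 0.05 and 0.14. ELOVL6, which lengthens saturated fatty acids, differed by 0.92 ± 0.27 (adjusted p = 0.0347), and by 0.86 without pig 10 (adjusted p = 0.0518). ME1, the malic enzyme that supplies NADPH, had levels of -0.13 to 1.10 in the low line and 0.68 to 1.74 in the high line, a difference of 0.49 ± 0.13 (adjusted p = 0.021) at 1 of 3 probes. The part of fat cells in these values was not tested.

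Antioxidant genes were called in both directions, with 19 of 178 probes higher, or 11% beside 2.75% of all probes with a symbol, and 5 lower, or 2.81% beside 4.1%. The 19 higher probes stood for only 4 of the 40 genes tested, with 9 for TXNIP, 4 each for GPX3 and PRDX3 and 2 for PRDX1. PRDX3 had 16 probes in all. The median of the list was 0.08. GPX3, the extracellular glutathione peroxidase, had levels of -0.68 to 0.70 in the low RFI line, with a median of 0.16, and 0.49 to 1.44 in the high RFI line, with a median of 0.79. All 12 pigs of the high line lay above the median of the low line, and 4 of 5 probes were called, with a difference of 0.72 ± 0.16 (limma adjusted p = 0.00557). PRDX1, a cytosolic peroxiredoxin, had levels of 3.23 to 3.93 in the low line and 3.44 to 4.42 in the high line and differed by 0.39 ± 0.09 (adjusted p = 0.00569) with both probes called. PRDX4, the peroxiredoxin of the endoplasmic reticulum, fell by 0.28 ± 0.07 (adjusted p = 0.0202), with 4 of 6 probes called. TXNIP, which binds thioredoxin and limits glucose uptake, had 9 of its 11 probes called, with levels of 1.67 to 3.31 in the low line and 0.78 to 4.22 in the high line. Its difference was 0.95 ± 0.25 (adjusted p = 0.0199), although 1 pig of the high line had the lowest level of all 24.

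Of the 59 probes of glucocorticoid activation and targets 6 were higher (10.2%) and 2 lower (3.39%), beside 2.75% and 4.1% of all probes with a symbol. Among genes of hormone and stress response, HSD11B1, which makes active cortisol from cortisone, accounted for all 6 higher calls. Its level was -2.58 to -1.50 in the low RFI line, with a median of -2.28, and -2.03 to -0.15 in the high RFI line, with a median of -1.38. The difference was 0.88 ± 0.20 (limma adjusted p = 0.00694), with 6 of 7 probes called, and 0.72 on the LF diet. FKBP5, a glucocorticoid target, differed by 0.66 ± 0.29 and was not called (adjusted p = 0.152), and KLF9, another target, fell by 0.40 (adjusted p = 0.0273) at the leading of 2 called probes out of 11.

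Immediate early genes, transcribed within minutes of a stimulus, had 7 of 64 probes higher (10.9%) and none lower, beside 2.75% and 4.1% of all probes with a symbol. Their median was 0.53 against 0.25 on the LF diet, beside -0.02 and -0.03 over all probes with a symbol. Of the 7 higher probes 4 were for MYC and 3 for NR4A3. Counts of this list without pig 6 or pig 10 are not given. MYC, which drives growth and ribosome synthesis, had levels of -1.95 to -0.73 in the low RFI line, with a median of -1.55, and -1.41 to 0.40 in the high RFI line, with a median of -0.47. It differed by 0.92 ± 0.24 (limma adjusted p = 0.02) with all 4 probes called. NR4A3, an orphan nuclear receptor induced by exercise, had levels of -2.86 to -0.29 and -1.70 to 1.20 in the low and high lines, a difference of 1.49 ± 0.44 (adjusted p = 0.0328). It was not called without pig 6, at 1.36 (adjusted p = 0.0643), or without pig 10, at 1.40 (adjusted p = 0.0502). HSPH1, a chaperone, had levels of 0.84 to 2.97 in the low line and 1.76 to 4.09 in the high line, a difference of 0.82 ± 0.25 (adjusted p = 0.0352), and was at 0.78 without pig 6 (adjusted p = 0.0615).

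The comparison on the LF diet asks which differences were seen on the HF diet only. On the LF diet 1040 probes were called, and among probes with a symbol 249 were higher (1.12%) and 333 lower (1.5%). On both diets 558 probes were called, all in the same direction. Of the 2692 probes called on the HF diet, 2568 had the same sign on the LF diet and 124 the opposite one. The test of the difference between the 2 diets, the line by diet interaction in limma, called no probe (0%), with a smallest adjusted p of 0.395, while 1875 probes had an unadjusted p below 0.05. No gene was therefore shown to differ between the lines on the HF diet alone.

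The smallest interaction p among named genes was that of RBM39, a splicing factor, with differences of 0.25 on HF and -0.23 on LF (limma interaction adjusted p = 0.395). FHL5, a LIM protein of muscle and testis, gave 0.27 and -0.33, and STOML1, of the stomatin family, -0.19 and 0.26 (interaction adjusted p = 0.562 for both). For several of the called genes described above the HF difference was the larger one without passing this test. CA4 had 1.41 and 0.51, NFIL3 1.30 and 0.30, and NR4A3 1.49 and -0.18. HSPH1 had 0.82 and -0.13 and ELOVL5 0.62 and 0.16. Over whole lists the medians on the 2 diets were near each other for macrophage markers and ribosomal proteins and lay apart for adipocyte markers and lipogenesis. Beside the 1875 of 42125 probes with an unadjusted interaction p below 0.05, there were 8 of 14 for B and plasma cell markers, 10 of 54 in lipogenesis, 8 of 46 for solute carriers, 18 of 119 in heat shock and chaperones and 10 of 95 for plasma lipoprotein and acute phase genes, with none called. The B and plasma cell markers had medians of 0.25 (HF) and -0.03 (LF). Of their 14 probes 9 were for XBP1, with medians of 0.26 (HF) and -0.03 (LF), so the list values stand mainly for 1 gene.

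**Figure D5:**
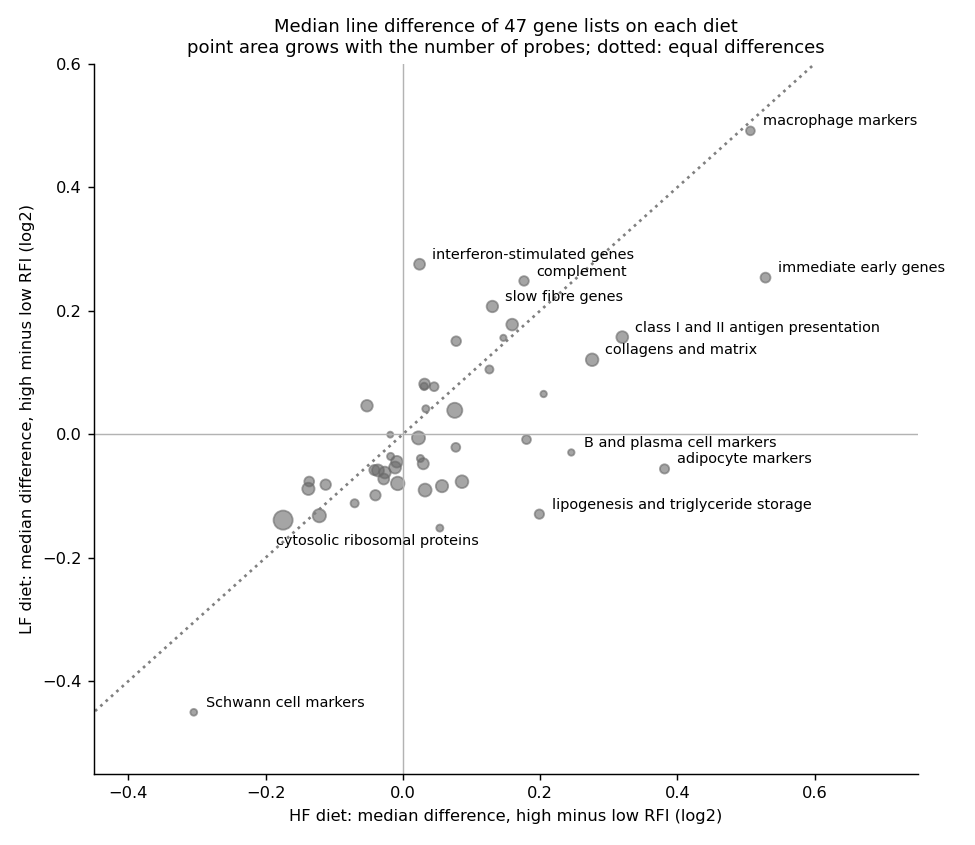
Median difference between the lines of each gene list on the HF diet against that on the LF diet, both as log2, high minus low RFI. Macrophage markers lie at 0.51 and 0.49, while adipocyte markers lie at 0.38 (HF) and -0.06 (LF).

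The genes that the study measured by quantitative PCR were chosen on pigs that include these, so their counts are no independent evidence. Of 92 probes for 22 of them 14 were higher (15.2%) and 15 lower (16.3%), beside 2.75% and 4.1% of all probes with a symbol. Beside CD40, HSD11B1, RPL6 and SERPINA1, CSRNP3, a nuclear protein rich in cysteine and serine, had levels of -3.99 to -2.63 in the low RFI line and -3.87 to -1.79 in the high RFI line, a difference of 0.82 ± 0.20 (limma adjusted p = 0.0136). AKAP12, a scaffold for protein kinase A, differed by 0.37 (adjusted p = 0.0148) at the leading of 2 called probes out of 6.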

How the data were processed

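Total RNA of 48 pigs was hybridised to 1-colour Agilent porcine arrays of 60305 distinct 60-base probes. The deposited scanner files hold background-subtracted spot intensity values from Feature Extraction, not normalized between arrays. The authors also deposited a table of 34472 probes, which matched log2 of the median signal minus the median of each array. The submitters' notes name R 2.10.0. Group membership was taken from the strain and diet labels, and pigs were separate animals.

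Here log2 of the processed signal was used, control and outlier spots were left out (169 missing values among tested probes), and each array was centred on its mean over the 42125 tested probes, those that 12 or more arrays measured well above background. limma 3.58.1 in R 4.3.3 was fitted to 48 arrays with 4 group means, so both diets share 1 spread per probe, and the Benjamini-Hochberg threshold was 0.05. The script was tested on simulated data. Figures used Python 3.11.15 with numpy 2.4.6, pandas 2.3.3 and matplotlib 3.10.9. A fold for a probe below background on all arrays of a line is a bound against the lowest signal well above background. Array number limits precision.

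Genes were named by rules: the 12 largest median differences per direction among genes with at least 2 tested probes, 50% or more of them called and none in the other direction; the 6 largest at probes bright on all 24 arrays; up to 4 per list by moderated t; up to 10 without overlap; the 5 smallest interaction p; and the genes measured by quantitative PCR. LGALS3, CTSH and CTSS fell under these rules, and B2M, IL10, CXCL2, LOX, SPARC, SLA-DMB and SLA-DQA1 were named after their values were seen. For the latter genes no values without pig 6 or pig 10 are given. Members, lists and rules were chosen with earlier results of these data known.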

Additional observations from a re-analysis of the deposited data

How the results depend on the processing

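Beside the 2692 calls (994 higher, 1698 lower) other settings gave these counts. The normexp correction, with an offset of 50, called 973 lower. Without a filter on dim probes 802 were called, 288 higher and 514 lower. With the slide as a block 4187 were called, 2773 of them lower. The 24 HF arrays alone gave 1267, 555 higher and 712 lower. Leaving out pig 6 or pig 10 of the high RFI line gave 1694 to 2567 called, 578 to 1151 higher and 1116 to 1416 lower, and leaving out both gave 1486, 659 higher and 827 lower. The causes were not tested. Quantile normalization (2381), the 75th percentile (2716), only probes bright on all HF arrays (2744), kept outlier spots (2680) and the deposited table (2526) stayed within 1.5 times. No probe of the interaction was called in any setting. No called probe of the 141 named ones changed direction in any setting. Calls were lost most often with no filter (82), with the HF arrays alone (53), without pig 6 (41), without both pigs (41) and after normexp (39), and none was lost with the slide as a block. No paired analysis was possible because the labels give every pig the same replicate number. Of the calls, 2426 were at probes well above background on all 24 arrays, and at the others a signal near background limits the difference.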
